A study of Mus musculus with 26 samples.

Results

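Hepcidin, the liver hormone that sets how much iron enters the blood, was followed together with the genes that control it and the genes that take up, carry, store and export iron. The 10 genes (Hamp, Hamp2, Bmp6, Id1, Smad7, Tfr2, Tfrc, Trf, Slc40a1 and Fth1) were chosen by name, and their rows were found by matching gene identifiers to symbols among the 47643 gene rows of the count table. All 10 passed the filter on low counts in every comparison. The measurements are mRNA levels in mouse liver, given as CPM (gene counts scaled to a common library size) in 26 libraries that form 10 groups and 5 comparisons.

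The first comparison set 2 livers of mice given TCPOBOP, an agonist of the nuclear receptor CAR, against 2 livers of mice given corn oil. Both groups were wild type C57BL/6J, 8 weeks old and fed ad libitum, and the labels of the TCPOBOP libraries give the time since injection as 36 hours in the title and 6 hours in the source name. The second set 3 Fxr-/- Shp-/- livers, deficient in Nr1h4, which encodes the bile acid sensor FXR, and in Nr0b2, which encodes its target SHP, a corepressor, against 3 wild type livers, all C57BL/6J, 12 weeks old and fed ad libitum. The third set 3 livers at 48 hours after partial hepatectomy against 3 sham livers labelled 0 hours, all of the strain C3H/HeN, aged 8 to 10 weeks and fed ad libitum, with no genotype given. The fourth used isolated hepatocytes of wild type C57BL/6J mice, 16 weeks old and fasted for 10 hours, with 2 libraries from a diet of 60% fat and 2 from chow. The fifth set 3 livers of mice on a cholic acid diet against 3 on chow. All 6 of those animals carried floxed Fxr and Shp alleles (fl/fl Fxr fl/fl Shp, C57BL/6J), were 10 to 12 weeks old and had fasted for 8 to 10 hours, and no Cre is named for them. The labels do not say that libraries of a group came from separate animals, so the p-values measure the spread between these libraries, which may be technical.

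Hepatocytes secrete hepcidin, which binds the iron exporter ferroportin (Slc40a1) on other cells and causes its degradation, so that less iron reaches the blood. Hepcidin transcription is driven by BMP ligands such as BMP6, which endothelial cells of the liver sinusoids make when iron is plentiful and which act through SMAD proteins, and by the inflammatory cytokine IL6, which acts through STAT3. Mice have a pair of neighbouring hepcidin genes, Hamp and Hamp2, and Hamp encodes the peptide that regulates iron.

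Gene counts per library ranged from 13949059 to 70367874. A pair of libraries stood apart from their own groups. The library labelled corn oil 1 had 3706 CPM of Cyp2b10, the classical CAR target, where corn oil 2 had 9.94 CPM and the livers given TCPOBOP 3430 and 2988 CPM, so no direction is drawn from the TCPOBOP comparison. The third floxed chow library differed more than 2-fold from its group mates in 13.7% and 12.1% of expressed genes, where those mates differed from each other in 1.88%. In the knockout, Nr0b2 counts lay between 0.558 and 1.59 CPM against 13.1 to 26.5 CPM in wild type, and Nr1h4 counts between 52.3 and 61.0 CPM against 113 to 151 CPM. Reads that align to several places made up 43.2 to 44.1% of all reads counted in the wild type libraries of this comparison. In the knockout they made up 25.5 to 26.9%, and no library of another group exceeded that. The part of this difference in the knockout results was not tested. Hepatocyte markers (Alb, Apoa1, Ttr, Cps1, Hnf4a) summed to at least 43595 CPM in every library. The hepatocyte preparations still held RNA of other liver cells, with the 6 endothelial markers summing to 42.3 to 44.1 CPM on chow and 105 to 108 CPM on high fat diet. In bulk RNA, fewer cells of a type and less RNA per cell cannot be told apart.

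A gene is called changed below at an edgeR adjusted p under 0.05, and differences are log2 fold changes with their standard error. The knockout changed 6 of the 10 genes (4 higher, 2 lower), against 40.4% of all genes tested (21% higher, 19.4% lower). Partial hepatectomy changed 3 (1 higher, 2 lower), a share close to the 30.7% of all genes (16.4% higher, 14.3% lower). High fat diet changed 4 (2 higher, 2 lower), against 24% of all genes (12.9% higher, 11.1% lower). Cholic acid changed 2, both higher, against 4.77% of all genes (2.27% higher, 2.5% lower). TCPOBOP changed 0, against 0% of all genes: none of the 10 had an unadjusted p under 0.05 in edgeR, where 751 of 12785 genes did, and DESeq2 called 91 genes but 0 of these 10. Hamp2 was called in 3 comparisons and Id1 in 4.

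**Figure D1:**
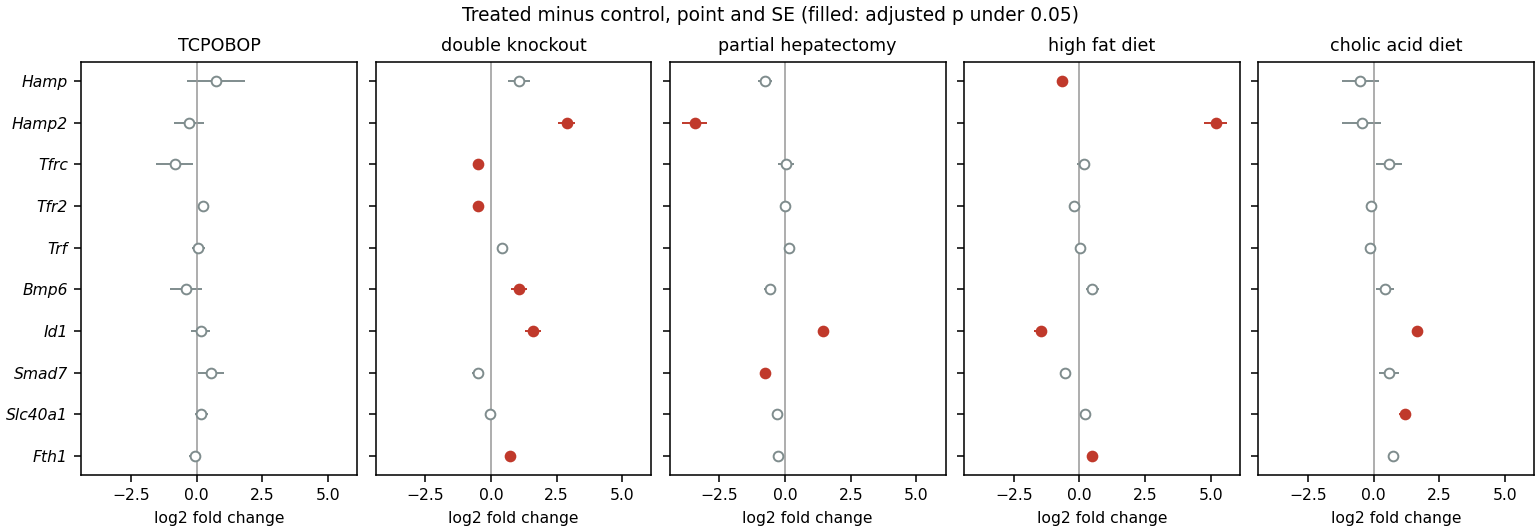
Log2 fold change of the 10 genes in each comparison (x axis, changed group minus its control), with bars for the standard error and filled points for an adjusted p under 0.05. Hamp2 spans the widest range, from -3.43 after partial hepatectomy to 5.20 on high fat diet.

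The pair of hepcidin genes lie on the minus strand of chromosome 7 (GRCm38), Hamp at chr7:30942368-30944032 and Hamp2 at chr7:30922372-30924681, 17686 bases apart. Since their levels moved apart in these data, their promoters are shown. Each sequence holds the 250 bases before the RefSeq transcription start (GRCm38.p6), 5′ to 3′ on the minus strand, for Hamp at chr7:30944030-30944279 and for Hamp2 at chr7:30924182-30924431. A longer annotated Hamp2 transcript starts further upstream, and the Hamp2 window falls in its intron. Capitals mark matches to GGCGCC, the core of the BMP-responsive element, and to TTCNNNGAA, the palindrome that STAT proteins bind, searched on both strands.
Hamp: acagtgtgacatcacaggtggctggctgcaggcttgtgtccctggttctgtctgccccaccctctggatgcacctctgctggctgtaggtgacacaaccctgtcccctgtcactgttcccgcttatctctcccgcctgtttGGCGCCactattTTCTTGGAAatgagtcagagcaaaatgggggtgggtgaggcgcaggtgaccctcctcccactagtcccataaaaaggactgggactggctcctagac
Hamp2: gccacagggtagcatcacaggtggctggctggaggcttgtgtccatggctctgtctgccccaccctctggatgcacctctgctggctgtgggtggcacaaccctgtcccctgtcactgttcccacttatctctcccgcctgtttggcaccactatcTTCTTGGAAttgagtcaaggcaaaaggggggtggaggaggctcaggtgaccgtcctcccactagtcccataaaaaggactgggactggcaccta
The windows aligned over 247 bases, of which 227 were identical (91.9%). Hamp held GGCGCC at 109 to 104 bases before its start and TTCTTGGAA at 97 to 89 bases. Hamp2 held TTCTTGGAA at 94 to 86 bases, and no GGCGCC in this window. The substitution at that element, counted from 1 at the 5′ end of the Hamp window, was G145A (Hamp base first). Among 32851 promoter windows of this length, 9.586% held GGCGCC and 7.02% held TTCNNNGAA. These matches are descriptions of the letters and not measured binding sites. The coding sequences were 93.57% identical (233 of 249 bases). Of all 50-base stretches of the Hamp transcript, 16.62% also occur in Hamp2, and 0% of 100-base stretches do, so short reads from the shared stretches could be left out or assigned to either gene. The gene model Gm44662 on the opposite strand overlaps 15.3% of the Hamp2 exon bases and had 0 to 10 counts per library.

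In wild type livers Hamp measured 360.4, 332 and 177 CPM, and in Fxr-/- Shp-/- livers 497, 308 and 1022 CPM. The groups overlapped, since the second knockout library lay below 2 of the wild type libraries. The difference was 1.08 ± 0.41 and missed the threshold (edgeR adjusted p = 0.0665). It passed without knockout library 2 (1.40, adjusted p = 0.0213) and with no low-count filter (1.09, adjusted p = 0.00801). Hamp2 separated the same livers fully, at 14.7, 16.1 and 19.7 CPM in wild type and 105, 72.7 and 191 CPM in the knockout. Hamp2 was 7.38-fold higher in the knockout, a difference of 2.88 ± 0.32 (adjusted p = 0.000238). With the counts of both genes added together, the hepcidin locus was higher in the knockout by 1.26 ± 0.40 (adjusted p = 0.0327). Markers of other cells were also higher in these livers, with 4 of 6 stellate markers (summed 173 to 281 CPM in wild type, 344 to 426 CPM in the knockout) and 4 of 5 cholangiocyte markers (4.96 to 7.42 CPM and 11.9 to 19.5 CPM) called, and their part in the Hamp2 result was not tested.

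After partial hepatectomy Hamp2 moved the other way. Sham livers had 80.5, 52.0 and 61.6 CPM of Hamp2 and hepatectomised livers 3.33, 3.18 and 11.4 CPM. All 3 operated livers lay below all 3 sham livers, and the difference was -3.43 ± 0.48 (adjusted p = 0.00138), which leaves 0.0925 of the sham level. Hamp itself measured 502, 907 and 982 CPM in sham and 593, 440.0 and 385 CPM after hepatectomy. Only the first sham library lay within the range of the operated livers, and the difference of -0.76 ± 0.26 missed the threshold (adjusted p = 0.0578). Hamp passed without sham library 1 (-1.01, adjusted p = 0.00826) and without hepatectomy library 1 (-0.95, adjusted p = 0.0361). It also passed in DESeq2 (-0.77, adjusted p = 0.00871) and with no low-count filter (-0.76, adjusted p = 0.0183). The summed counts of both genes were lower after hepatectomy (-0.85 ± 0.23, adjusted p = 0.0266). Hepatocyte markers were lower in the operated livers, with 2 of 5 (Alb and Apoa1) called and a summed level of 119309 to 124713 CPM in sham and 90792 to 102460.5 CPM after hepatectomy. Of the endothelial markers 1 of 6 (Lyve1) fell (174 to 248 CPM and 182 to 192 CPM), and of the 4 cholangiocyte markers tested 1 (Krt19) rose. The part of these cells in the hepatectomy changes was not tested.

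On high fat diet the pair went in opposite directions in the same hepatocyte preparations. Hamp fell from 167 and 203 CPM on chow to 100.3 and 137 CPM, a difference of -0.67 ± 0.17 (adjusted p = 0.0406). Hamp2 rose from 2.05 and 4.02 CPM to 79.6 and 149 CPM, which was 36.7-fold or 5.20 ± 0.44 (adjusted p = 0.00306). Both high fat libraries lay below both chow libraries for Hamp and above them for Hamp2. Per kilobase of exon, the mean level of Hamp on chow was 451 CPM and that of Hamp2 was 5.21 CPM, while on high fat diet they were 289 and 196 CPM. The summed counts did not pass the test (0.28 ± 0.23, adjusted p = 0.398). The call for Hamp was lost without chow library 2 (-0.53, adjusted p = 0.0781) or without high fat library 1 (-0.46, adjusted p = 0.112), and in 1 fit over all 26 libraries (-0.64, adjusted p = 0.692), while Hamp2 stayed between 4.67 and 5.76 in all 4 fits that left out 1 library. Markers of other liver cells rose in the same preparations, with 6 of 6 endothelial, 4 of 6 macrophage (39.9 to 41.6 CPM on chow, 68.9 to 76.7 CPM on high fat diet) and 5 of 6 stellate markers (9.61 to 16.1 CPM and 37.7 to 38.5 CPM) called. Of the hepatocyte markers 2 of 5 fell, while their summed level overlapped (90813 to 94172 CPM on chow, 92402 to 93275 CPM on high fat diet). The part of these cells in the changes on high fat diet was not tested.

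Cholic acid left neither hepcidin gene called. Hamp measured 1086, 1599 and 129 CPM in floxed chow livers and 767, 758 and 474 CPM on cholic acid, and the third chow library was the lowest of the 6. The difference was -0.50 ± 0.70 (adjusted p = 0.701), and without this library it was -1.02 (adjusted p = 0.0441). Hamp2 measured 11.9, 29.5 and 1.87 CPM on chow and 8.17, 16.2 and 7.63 CPM on cholic acid, with a difference of -0.45 ± 0.74 (adjusted p = 0.756). In the TCPOBOP comparison Hamp measured 35.6 and 466 CPM with corn oil and 334 and 519 CPM with TCPOBOP, and Hamp2 4.12 and 13.9 CPM and 6.99 and 7.93 CPM. Corn oil library 1, which carries the CAR target at the treated level, was the lowest of all 26 libraries for Hamp. The TCPOBOP differences were 0.75 ± 1.11 for Hamp and -0.29 ± 0.58 for Hamp2. Without corn oil library 1 they were -0.14 and -0.91, and without corn oil library 2 they were 3.59 and 0.86. Each of these fits leaves 1 control library, and no direction is drawn from them.

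The balance of the pair can be read from the share of their summed CPM that Hamp2 takes. That share was 48.2% ± 5.60 (SD, n = 2) in high fat hepatocytes and 17.5% ± 1.66 (SD, n = 3) in the knockout. It averaged between 1.38% after partial hepatectomy and 8.38% in sham livers in the other 8 groups. Among controls, the highest single values were 13.8% in sham library 1 and 10.4% in corn oil library 1. The order of group means differed between the genes. Hamp was highest in floxed chow livers (938 ± 746 CPM, SD, n = 3) and lowest in high fat hepatocytes, and neighbouring groups overlapped at every step but the last. Hamp2 was highest in the knockout and in high fat hepatocytes, followed by sham livers at 64.7 ± 14.5 CPM (SD, n = 3), and the range of sham did not overlap that of the next group, wild type.

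**Figure D2:**
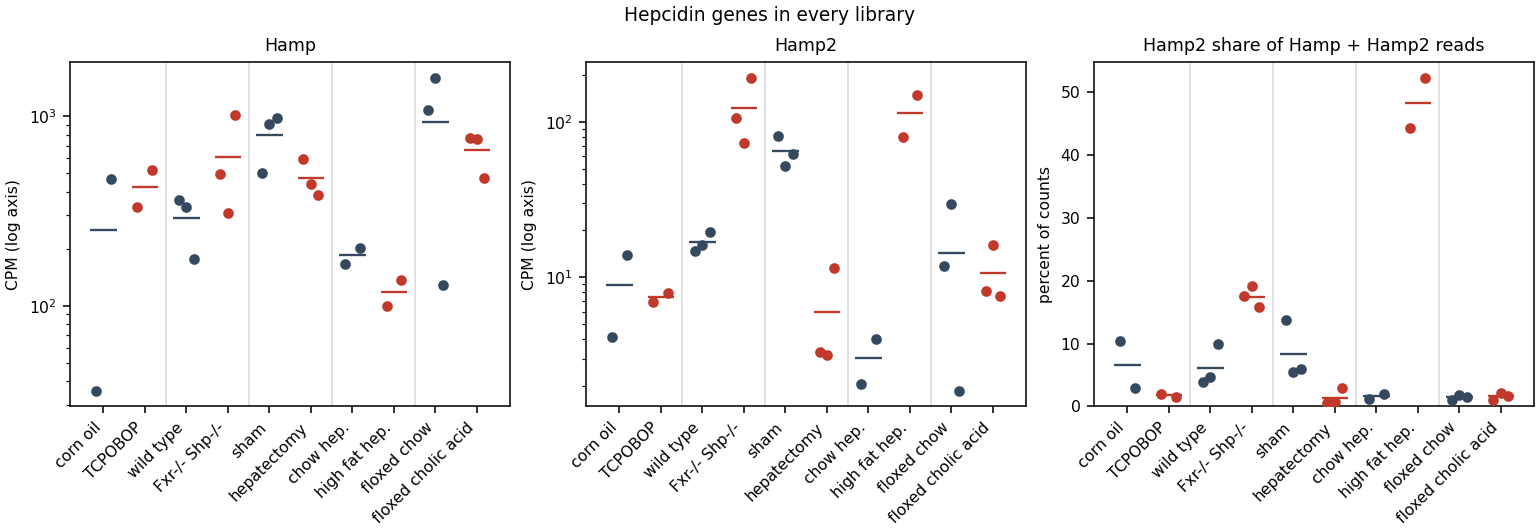
CPM of Hamp and Hamp2 on log axes and the Hamp2 share of their sum in percent, with a point for each library, a horizontal line for each group mean, controls in a dark colour and changed groups in red. The Hamp2 share is 44.2% and 52.2% in the high fat hepatocytes and at most 19.1% in the other libraries.

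Bmp6 (chr13:38345107-38500302, plus strand) encodes the BMP ligand that reports iron stores to hepatocytes. Its level was low in all groups, with means from 0.893 CPM in chow hepatocytes to 3.79 CPM in the knockout. Wild type livers had 1.13, 2.20 and 2.21 CPM and knockout livers 4.72, 2.97 and 3.67 CPM, with no overlap. The difference was 1.06 ± 0.30 (adjusted p = 0.0214). It was lost without wild type library 1 (0.79, adjusted p = 0.0651) or knockout library 1 (0.87, adjusted p = 0.0786). Endothelial markers, from the cells that make BMP6, moved with it: 2 of 6 (Stab2 and Lyve1) rose and their summed level was 67.9 to 129 CPM in wild type and 122 to 183 CPM in the knockout, and their part in the result was not tested. The end of Bmp6 overlaps Txndc5 on the opposite strand over 5.74% of its exon bases, and Txndc5 was lower in the knockout (-0.40 ± 0.11, adjusted p = 0.0175). Bmp6 was not called after partial hepatectomy (-0.57 ± 0.24, adjusted p = 0.102), on high fat diet (0.50 ± 0.25, adjusted p = 0.192), on cholic acid (0.45 ± 0.34, adjusted p = 0.473) or with TCPOBOP (-0.40 ± 0.61, adjusted p = 0.975).

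Id1 (chr2:152736251-152737410, plus strand) is a transcriptional inhibitor that BMP signalling induces through SMAD1 and SMAD5, and it is commonly read as a gauge of that signal. It was called in 4 comparisons and in both directions. Floxed chow livers had 6.13, 6.32 and 5.96 CPM and cholic acid livers 17.95, 22.8 and 18.1 CPM, the highest levels of Id1 in the series. The groups were far apart compared with their spread, and the difference was 1.66 ± 0.18 (adjusted p = 0.00321), or 3.17-fold. In the knockout Id1 rose from 1.43, 2.20 and 1.74 CPM to 4.98, 3.49 and 7.63 CPM, a difference of 1.60 ± 0.32 (adjusted p = 0.00443). After partial hepatectomy it rose from 2.39, 3.09 and 3.90 CPM to 8.24, 8.93 and 8.42 CPM, a difference of 1.44 ± 0.19 (adjusted p = 0.00109). In these 3 comparisons every changed library lay above every control library. In hepatocytes on high fat diet Id1 fell from 2.48 and 1.89 CPM to 0.814 and 0.787 CPM, a difference of -1.47 ± 0.25 (adjusted p = 0.0143), and the call was lost without high fat library 1 (-1.50, adjusted p = 0.0572). With TCPOBOP the Id1 values of 2.50 and 4.42 CPM and 3.43 and 4.33 CPM overlapped (0.15 ± 0.38).

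Smad7, which encodes an inhibitory SMAD that BMP and TGF-beta signals induce as a brake on themselves, was called only after partial hepatectomy. Sham livers had 11.2, 13.5 and 12.4 CPM and operated livers 7.89, 7.56 and 6.34 CPM. The groups did not overlap, and the difference was -0.77 ± 0.13 (adjusted p = 0.00379). The call was lost in the fit over all 26 libraries (-0.77, adjusted p = 0.0891). In the knockout Smad7 measured 8.09, 8.37 and 7.38 CPM in wild type and 5.07, 4.15 and 7.43 CPM, where the third knockout library overlapped wild type and the difference was -0.50 ± 0.21 (adjusted p = 0.0907). Without that library it was -0.76 (adjusted p = 0.00588). In hepatocytes it measured 9.49 and 12.7 CPM on chow and 8.65 and 7.07 CPM on high fat diet (-0.53 ± 0.19, adjusted p = 0.0882). Without chow library 1 that difference was -0.73 (adjusted p = 0.0296). Floxed chow livers had 14.4, 12.6 and 4.10 CPM and cholic acid livers 14.3, 17.1 and 15.8 CPM, with the third chow library again the lowest (0.59 ± 0.39, adjusted p = 0.403). Corn oil and TCPOBOP libraries had 4.28 and 8.39 CPM and 6.29 and 12.4 CPM (0.55 ± 0.49). After hepatectomy the SMAD targets Id1 and Smad7 thus moved in opposite directions in the fit on these 6 libraries.

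**Figure D3:**
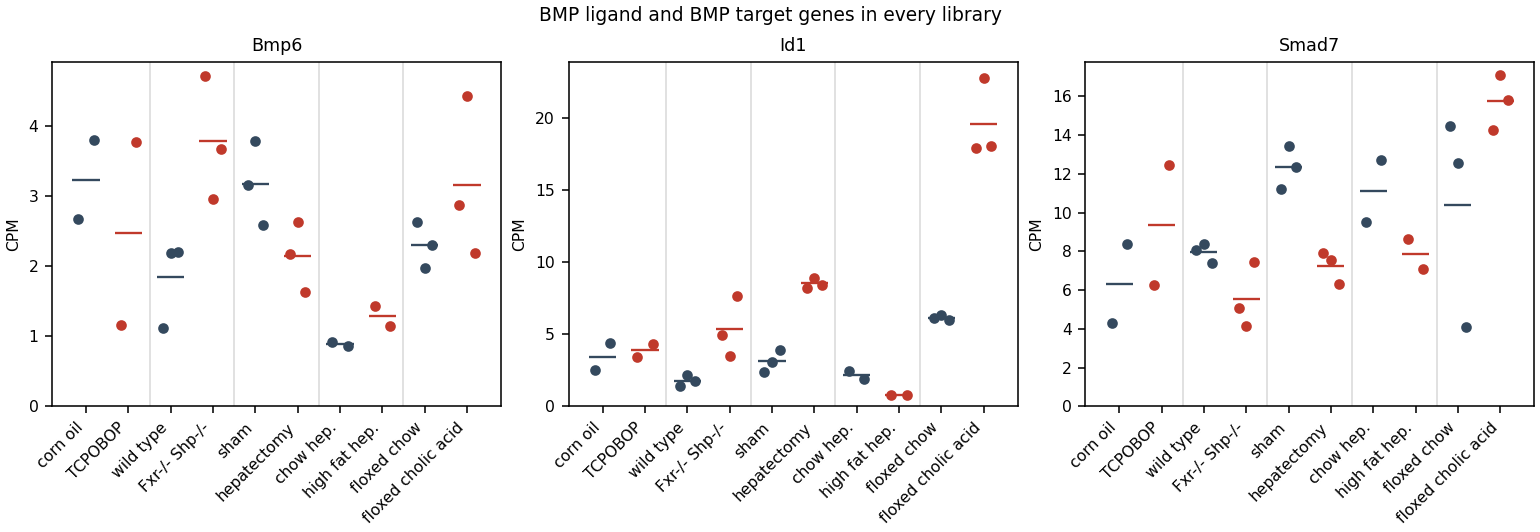
CPM of the ligand gene Bmp6 and the BMP target genes Id1 and Smad7 on linear axes from 0, with a point for each library and a horizontal line for each group mean (controls dark, changed groups red). The 3 cholic acid livers have 17.95, 22.8 and 18.1 CPM of Id1, above all other libraries.

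Beyond these 10 genes, a list of 25 genes of the BMP and SMAD arm of hepcidin control was counted, of which 21 could be tested in each comparison. In the knockout 6 rose and 0 fell, where 21% and 19.4% of all genes did, and the median change was 0.20 where that of all genes was -0.01. The counts became 3 and 1 without wild type 1, 3 and 0 without knockout 1, and 5 and 2 without knockout 3. Among them were Hjv, the BMP co-receptor whose loss causes juvenile haemochromatosis (62.4 to 148 CPM, 1.26 ± 0.10, adjusted p = 2.83e-05), Fstl1, a secreted BMP antagonist (1.45 ± 0.24, adjusted p = 0.00183), the SMAD targets Id3 (1.03 ± 0.14, adjusted p = 0.000747) and Smad6 (0.84 ± 0.24, adjusted p = 0.0223), and the endothelial ligand Bmp2 (0.77 ± 0.24, adjusted p = 0.0348). Id3 thus rose with Id1, and the antagonists Fstl1 and Smad6 rose beside the co-receptor. Hfe and Tmprss6, the protease that cleaves HJV and so restrains hepcidin, were not called in the knockout (0.06 ± 0.11 and 0.03 ± 0.09).

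After partial hepatectomy 4 genes of the BMP list rose and 5 fell, where 16.4% and 14.3% of all genes did (median 0.09, all genes 0.01). The counts became 3 and 1 without sham 2, 2 and 2 without sham 3, 7 and 4 without hepatectomy 1, and 4 and 2 without hepatectomy 2. Those that rose included Fstl1 (0.81 ± 0.15), the decoy receptor Bambi (0.76 ± 0.21) and the BMP receptor Acvr1 (0.66 ± 0.11). Those that fell included the SMAD target Atoh8, a transcription factor that promotes Hamp expression (-0.80 ± 0.23), Bmp2 (-0.65 ± 0.15) and Tmprss6 (-0.39 ± 0.09). The ligand Bmp2 and the restraining protease Tmprss6 thus fell together. On high fat diet 1 gene rose and 5 fell, where 12.9% and 11.1% of all genes did (median -0.13, all genes 0.01). The counts became 3 and 4 without chow 1, and 2 and 3 without high fat 2. Bmp2 rose from 4.94 to 12.8 CPM (1.34 ± 0.12, adjusted p = 0.00358). Smad9 (-2.58 ± 0.21), Id3 (-1.57 ± 0.15) and the receptor Acvr2b (-0.91 ± 0.22) fell, so Id3 moved with Id1 here too. The endothelial, macrophage and stellate markers that rose in these preparations come from cells that make BMP ligands, and their part in the Bmp2 result was not tested. With 2.27% of all genes higher and 2.5% lower on cholic acid, no gene of the BMP list was called there (median 0.25, all genes 0.01) or with TCPOBOP (0.02, all genes -0.02), and 1 rose with cholic acid once the third floxed chow library was left out.

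The IL6 and STAT3 arm holds 11 genes in the list used, of which 10 could be tested. Partial hepatectomy raised 4 and lowered 1 (median 0.19), where it raised 16.4% and lowered 14.3% of all genes. The 1 lowered became 0 without sham 2, sham 3 or hepatectomy 2. The acute-phase genes Saa2 (25.1 to 2016 CPM, 6.32 ± 0.29) and Saa1 (112 to 3405 CPM, 4.92 ± 0.35) and the hepatokine gene Fgl1 (2.91 ± 0.12) rose, while the receptor gene Il6ra fell (-0.64 ± 0.18). Saa1 and Saa2 are near copies of each other, so their counts are uncertain between them. Saa1, Saa2 and Fgl1 thus rose in the livers in which Hamp2 fell. In the knockout 2 rose and 1 fell, where 21% and 19.4% of all genes did, with 2 lowered without wild type 2. Socs3, the feedback inhibitor of this pathway (0.96 ± 0.23), and Stat3 (0.46 ± 0.10) rose and Il6ra fell (-1.05 ± 0.14), while Saa1 was not called (-1.48 ± 0.71, adjusted p = 0.126). High fat diet raised 0 and lowered 2, Il6ra (-1.19 ± 0.28) and Jak1 (-0.36 ± 0.08), where it raised 12.9% and lowered 11.1% of all genes. These counts became 2 and 1 without chow 1, 0 and 5 without chow 2, and 0 and 1 without high fat 1. Cholic acid and TCPOBOP changed 0 of the 10 in the full groups, with medians of -0.21 and 0.30. With TCPOBOP, calls appeared in this list without corn oil library 1 and also without corn oil library 2, and each of these fits leaves 1 control library.

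Tfr2 (chr5:137569840-137587481, plus strand) is the transferrin receptor by which hepatocytes sense how much iron transferrin carries, and it acts upstream of hepcidin. Wild type livers had 415, 369.9 and 419 CPM and knockout livers 257, 276 and 309 CPM, with every knockout library below every wild type library. The difference was -0.50 ± 0.10 (adjusted p = 0.00505) and held in all 6 fits that left out 1 library (-0.57 to -0.45). Hepatocyte markers were also lower in the knockout, with 2 of 5 (Apoa1 and Hnf4a) called, a median difference of -0.43 and a summed level of 80641 to 107496 CPM in wild type and 58932 to 79656 CPM in the knockout, and their part in the result was not tested. In the other comparisons Tfr2 was not called. It measured 376, 374 and 371 CPM in sham and 367, 359 and 408 CPM after hepatectomy (0.01 ± 0.08). Hepatocyte preparations had the highest levels, 585 and 601 CPM on chow and 530.1 and 531 CPM on high fat diet (-0.19 ± 0.08, adjusted p = 0.141). Floxed livers had 372, 359.6 and 411 CPM on chow and 361, 401 and 326 CPM on cholic acid (-0.08 ± 0.16), and the corn oil and TCPOBOP livers 316 and 363 CPM and 420.3 and 382 CPM (0.23 ± 0.17).

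Tfrc (chr16:32608920-32632794, plus strand), the receptor by which most cells take up transferrin, carries iron-responsive elements in its 3′ UTR, stem-loops bound by the iron regulatory proteins, which stabilise the message when iron is scarce. Slc40a1 and Fth1 carry them in the 5′ UTR, where the same proteins block translation. The sites found are shown because the element is a known shared feature of these 3 genes, and capitals mark the CAGTGN loop between 5-base arms that pair. The search took a C, a 5-base arm, the loop with A, C or T as its last base, and a pairing arm. G-T pairs were allowed, as in Tfrc site B, and only the transcript strand was searched.
Tfrc site A: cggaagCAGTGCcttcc
Tfrc site B: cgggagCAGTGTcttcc
Tfrc site C: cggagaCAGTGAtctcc
Tfrc site D: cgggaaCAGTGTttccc
Slc40a1: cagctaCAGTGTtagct
Fth1: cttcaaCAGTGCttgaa
Among genes with an annotated 3′ UTR, 0.519% held such a site there (110 of 21189), and 0.108% held it in the 5′ UTR (23 of 21200).

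Tfrc fell in the knockout, from 37.9, 34.1 and 45.2 CPM to 25.2, 25.4 and 31.1 CPM. The groups did not overlap, and the difference was -0.51 ± 0.13 (adjusted p = 0.0123). The call was lost in the fit over all 26 libraries (-0.53, adjusted p = 0.417). Both transferrin receptors were thus lower in the knockout in the fit on its own libraries. The other comparisons gave no call for Tfrc. Sham livers had 46.5, 80.0 and 74.6 CPM and operated livers 53.2, 104 and 49.8 CPM (0.03 ± 0.31), and hepatocytes 35.3 and 56.4 CPM on chow and 44.2 and 60.6 CPM on high fat diet (0.16 ± 0.25). Floxed chow livers had 32.5, 27.8 and 25.6 CPM and cholic acid livers 16.5, 31.3 and 81.9 CPM (0.59 ± 0.50), where the lowest and the highest of the 6 libraries were both from cholic acid livers. Corn oil library 1 had the highest Tfrc of all 26 libraries, at 215 CPM against 45.3 CPM in corn oil 2 and 73.2 and 73.1 CPM with TCPOBOP (-0.84 ± 0.70). That library was thus at the extremes of the series for Hamp and for Tfrc, in opposite directions. Without corn oil 1 the Tfrc difference was 0.67, and without corn oil 2 it was -1.55. Each of these fits leaves 1 control library, and no direction is drawn from them.

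Trf (chr9:103204001-103230444, minus strand) encodes transferrin, the iron carrier that hepatocytes secrete. It was called in 0 of the 5 comparisons with the low-count filter in place. Wild type livers had 623, 436 and 704 CPM and knockout livers 780.1, 840.2 and 742 CPM. The knockout libraries lay above all wild type libraries, and the difference of 0.44 ± 0.16 missed the threshold (adjusted p = 0.0587). It passed without wild type library 3 (0.58, adjusted p = 0.0354) or without knockout library 3 (0.49, adjusted p = 0.0419), in DESeq2 (0.45, adjusted p = 0.0235) and in edgeR with no low-count filter (0.45, adjusted p = 0.0261). In the other comparisons the differences lay between -0.13 ± 0.19 with cholic acid and 0.16 ± 0.16 after hepatectomy. The 6 libraries of the knockout comparison ranged from 436 to 840.2 CPM, where the other 20 ranged from 78.5 to 334 CPM, a contrast between experiments that was not tested. Trf shares 63.5% of its exon bases with the gene model Gm20425 on the same strand, which had 0 counts in every library, so its counts may cover only part of the gene and are not set against other genes.

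Slc40a1 (chr1:45908068-45926523, minus strand) encodes ferroportin, the only known cellular iron exporter and the target of hepcidin. Cholic acid raised it: floxed chow livers had 112, 116 and 152 CPM and cholic acid livers 269.7, 363 and 243 CPM. All 3 treated livers exceeded every other library in the series, and the difference was 1.19 ± 0.21 (adjusted p = 0.0193), or 2.29-fold. The direction was the same in all 6 fits that left out 1 library (1.01 to 1.34), but the call was lost in 4, those without floxed chow 1, floxed chow 2, cholic acid 1 or cholic acid 2 (adjusted p from 0.0541 to 0.091). Macrophage markers, from cells rich in ferroportin, summed to 87.7 to 250.03 CPM on chow and 214 to 363 CPM on cholic acid. These ranges overlapped, and 1 of 6 markers (Csf1r) was called. Cholic acid library 3 had the highest marker sum of its group (363 CPM) and the lowest Slc40a1 (243 CPM). The part of macrophages in the Slc40a1 result was not tested. In the knockout Slc40a1 was 184, 201 and 205 CPM in wild type and 219, 179 and 176 CPM, with overlapping ranges (-0.02 ± 0.11, adjusted p = 0.88). After hepatectomy it measured 168, 166 and 147 CPM in sham and 147, 104 and 136 CPM (-0.32 ± 0.13, adjusted p = 0.104). Hepatocytes had 124 and 126 CPM on chow and 152 and 141 CPM on high fat diet (0.21 ± 0.08, adjusted p = 0.118), and the corn oil and TCPOBOP livers 82.5 and 132 CPM and 116 and 130.4 CPM (0.18 ± 0.26).

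Fth1 (chr19:9980598-9985098, plus strand) encodes the heavy chain of ferritin, the protein shell in which cells store iron. Knockout livers had 3060.3, 3307 and 3634 CPM against 1874, 1997 and 2180.0 CPM in wild type, a difference of 0.74 ± 0.12 (adjusted p = 0.0015) with no overlap. High fat hepatocytes had 2041 and 1739.9 CPM against 1362 and 1279 CPM on chow (0.49 ± 0.11, adjusted p = 0.0297). That call was lost without chow library 2 (0.43, adjusted p = 0.082) or high fat library 1 (0.37, adjusted p = 0.105), and in the fit over all 26 libraries (0.52, adjusted p = 0.0799). Cholic acid livers had 2457, 3504 and 2611 CPM against 1416, 1619 and 2030.1 CPM on chow, a difference as large as in the knockout (0.75 ± 0.22) that missed the threshold (adjusted p = 0.0924). It passed without the third floxed chow library (0.90, adjusted p = 0.0344), in DESeq2 (0.74, adjusted p = 0.0173) and in the fit over all 26 libraries (0.75, adjusted p = 0.00164). Hepatectomised livers had 1052, 974 and 1065 CPM against 1309, 1137 and 1245 CPM in sham (-0.26 ± 0.09, adjusted p = 0.0561), and passed without hepatectomy library 3 (-0.29, adjusted p = 0.0434) and in DESeq2 (-0.27, adjusted p = 0.0298). Corn oil and TCPOBOP livers had 1691 and 1254 CPM and 1498 and 1358 CPM (-0.06 ± 0.24).

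Ferritin genes have pseudogene copies. Reads that align to several places, in percent of all reads counted (assigned to a gene or not), also differed between groups. They made up 43.2 to 44.1 in wild type and 25.5 to 26.9 in the knockout, 23.8 to 24.6 on chow and 19.0 to 19.3 on high fat diet in hepatocytes, and 23.8 to 25.1 on chow and 16.6 to 17.6 with cholic acid, so that they were lower in the 3 groups with higher mean Fth1. After hepatectomy, where mean Fth1 was lower, they made up 18.9 to 20.05 against 20.1 to 20.7 in sham. Of the 50-base stretches of the Fth1 transcript, 6.59% occur in another gene. The part of these reads in the Fth1 result was not tested.

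**Figure D4:**
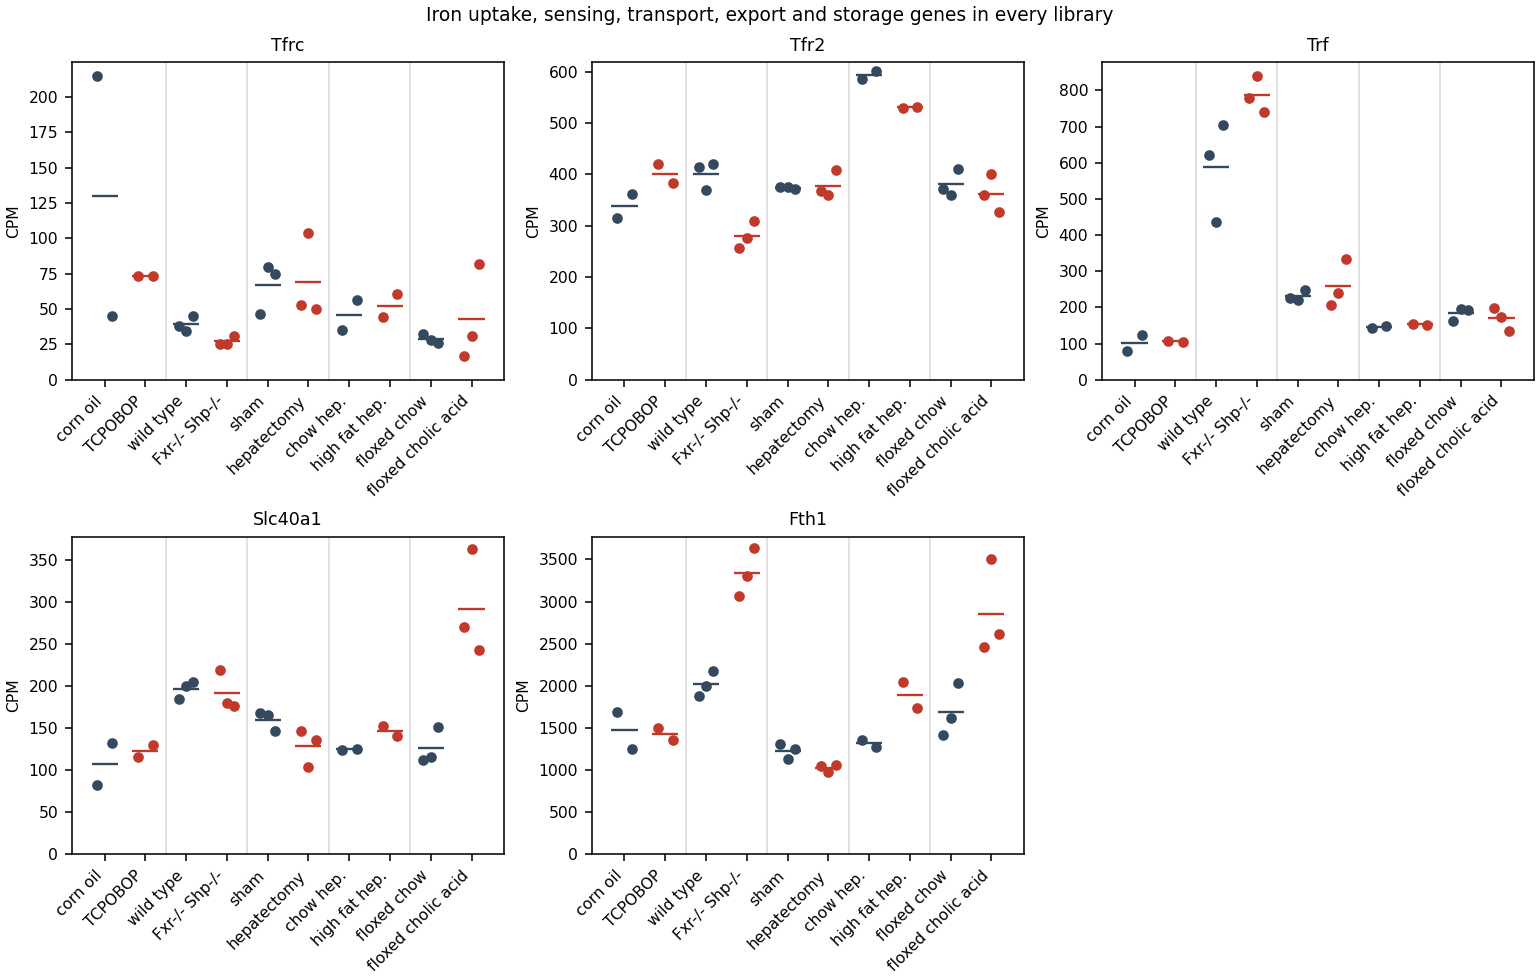
CPM of Tfrc, Tfr2, Trf, Slc40a1 and Fth1 on linear axes from 0, with a point for each library and a horizontal line for each group mean (controls dark, changed groups red). Slc40a1 stands highest in the 3 cholic acid livers (269.7, 363 and 243 CPM), and Fth1 is highest on average in the knockout (3334 ± 288 CPM, SD, n = 3).

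Compared per kilobase of exon, Hamp and Fth1 were the most abundant of these messages. Group means ranged from 289 to 2288 CPM per kilobase for Hamp and from 297 to 961 for Fth1. Tfr2 ranged from 64.7 to 137, Slc40a1 from 11.9 to 32.4 and Tfrc from 4.40 to 21.0. Id1 ranged from 0.690 to 16.9, Smad7 from 1.23 to 3.48 and Bmp6 from 0.229 to 0.971. Hamp2, from 5.21 to 211 CPM per kilobase, had the widest range among these 9 genes as a ratio of highest to lowest group mean. The exon lengths merge all annotated exons, with 410 bases for Hamp, 583 for Hamp2, 3469 for Fth1 and 9000 for Slc40a1. A complete coding transcript of each has 410, 437, 929 and 3370 bases. Levels set between genes depend on the length used, so no order of Hamp and Fth1 is drawn.

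Of 14 other genes of iron uptake and trafficking, 13 could be tested in the knockout, where 2 rose and 8 fell (median -0.38, all genes -0.01), against 21% and 19.4% of all genes. The 8 lowered became 4 without wild type 1 and 5 without knockout 1. The ferrireductase genes did not move as a set: Steap2 (-1.71 ± 0.17) and Steap3 (-1.61 ± 0.11) fell while Steap4 rose (47.8 to 191 CPM, 2.01 ± 0.29). Lcn2, which encodes a binder of bacterial iron carriers, rose (1.77 ± 0.14). Of the 3 leukocyte markers tested only 1 was called, the neutrophil marker S100a8, which rose (5.07 ± 0.50). The part of leukocytes in the Lcn2 result was not tested. After hepatectomy 3 of 13 rose and 2 fell (median 0.01), against 16.4% and 14.3% of all genes, and 1 and 1 without sham 2 or sham 3. The largest increases were those of Lcn2 (7.01 to 237 CPM, 5.07 ± 0.39) and Steap4 (0.84 ± 0.19). On high fat diet 3 of 13 rose and 1 fell (median 0.03), against 12.9% and 11.1% of all genes: Lcn2 (1.95 ± 0.19), Steap4 (0.84 ± 0.13) and Steap3 (0.61 ± 0.11) rose, and the transporter gene Slc11a2 fell (-0.31 ± 0.07), a call that no fit without 1 of the 4 libraries kept. Lcn2 and Steap4 rose in 3 comparisons of the full groups. With cholic acid 1 of 12 rose, against 2.27% of all genes, the mitochondrial iron importer Slc25a37 (1.24 ± 0.27). That call was lost without floxed chow 1, floxed chow 2, cholic acid 2 or cholic acid 3, each of which left 0 genes of the list raised, and 2 were raised without floxed chow 3. The erythroid marker Alas2 was lower in the knockout (-1.42 ± 0.24) and with cholic acid (-1.69 ± 0.26). In each, 1 of the 5 erythroid markers tested was lowered and 0 were raised, with medians of 0.09 and -0.55. The summed list ranged from 124 to 177 CPM in wild type and from 106 to 185 CPM in the knockout. It ranged from 206 to 466 CPM on floxed chow and from 78.5 to 239.6 CPM on cholic acid. The part of red cell precursors in these results was not tested.

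Among 9 genes of iron storage, sensing and oxidation, all of them tested, the knockout raised 4 and lowered 1 (median 0.22), against 21% and 19.4% of all genes. The 4 raised became 2 without wild type 1, wild type 3 or knockout 1, and the 1 lowered became 2 without knockout 3. Ftl1, the light chain of ferritin, rose with Fth1 (883 to 1252 CPM, 0.52 ± 0.10), as did Heph, a copper oxidase that helps export (0.90 ± 0.29), and Fbxl5, which removes an iron regulatory protein when iron is present (0.71 ± 0.10). Ncoa4, the receptor that carries ferritin to lysosomes to free its iron, fell from 22.2 to 3.14 CPM (-2.80 ± 0.19, adjusted p = 1.61e-05). Ftl1 and Ncoa4 have near copies in the genome, with 78.9% of 50-base stretches of Ftl1 and 52.5% of those of Ncoa4 found elsewhere, so their counts are uncertain. Hepatectomy raised 1, the ferroxidase Cp (0.51 ± 0.14), and lowered 3 (median -0.17), Epas1 (-0.54 ± 0.09), Aco1 (-0.40 ± 0.09) and Ncoa4 (-0.37 ± 0.12), against 16.4% and 14.3% of all genes. The counts became 0 and 1 without sham 2 or sham 3, and 0 and 2 without hepatectomy 1. High fat diet raised 0 and lowered 2 (median 0.09), Ncoa4 (-0.41 ± 0.11) and Epas1 (-0.31 ± 0.08), where 11.1% of all genes fell. Both calls were lost without chow 1, high fat 1 or high fat 2, each of which left 0 genes of the list lowered, and 1 was lowered without chow 2. Cholic acid changed 0 of 9 (median 0.21), with Ftl1 at 0.59 ± 0.16 (adjusted p = 0.0752).

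In the list of 11 genes that clear haem and haemoglobin, the knockout raised 5 and lowered 1 (median -0.08), against 21% and 19.4% of all genes. The 1 lowered became 0 without wild type 1, wild type 3, knockout 1 or knockout 2, and 2 without knockout 3. Hmox1, the haem oxygenase that releases iron from haem, had the largest change of this list (21.3 to 164 CPM, 2.96 ± 0.32, adjusted p = 0.000194), and the haem exporter Flvcr1 also rose (1.31 ± 0.20). Haptoglobin (Hp), which binds free haemoglobin, fell (-0.46 ± 0.14). Hepatectomy raised 4 and lowered 0 (median 0.34), against 16.4% and 14.3% of all genes, among them Hp (1736 to 5428 CPM, 1.64 ± 0.19) and haemopexin, the haem carrier of plasma (Hpx, 3861 to 11434 CPM, 1.56 ± 0.10). High fat diet raised 2, Flvcr2 (0.65 ± 0.18) and Hp (0.35 ± 0.09), and lowered Blvrb (-0.44 ± 0.10), with a median of 0.09, against 12.9% and 11.1% of all genes. The 2 raised became 1 without chow 1 or high fat 2 and 0 without chow 2 or high fat 1, and the 1 lowered became 0 in all but the fit without chow 1. Cholic acid raised 1, Flvcr2 (1.76 ± 0.39), with a median of 0.21, against 2.27% of all genes. In 5 of 6 fits that left out 1 library, those without floxed chow 1 or 2 or cholic acid 1, 2 or 3, the Flvcr2 call was lost and 0 genes of the list were raised, and without floxed chow 3 the count was 3. Flvcr2, from the same family of transporters as Flvcr1, rose by 0.77 ± 0.17 in the knockout and 1.09 ± 0.16 after hepatectomy. TCPOBOP changed 0 genes of all 3 lists (uptake, storage and haem) in the full groups. Calls appeared in all 3 without corn oil library 1, and in the uptake and haem lists without corn oil library 2. Each of these fits leaves 1 control library.

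**Figure D5:**
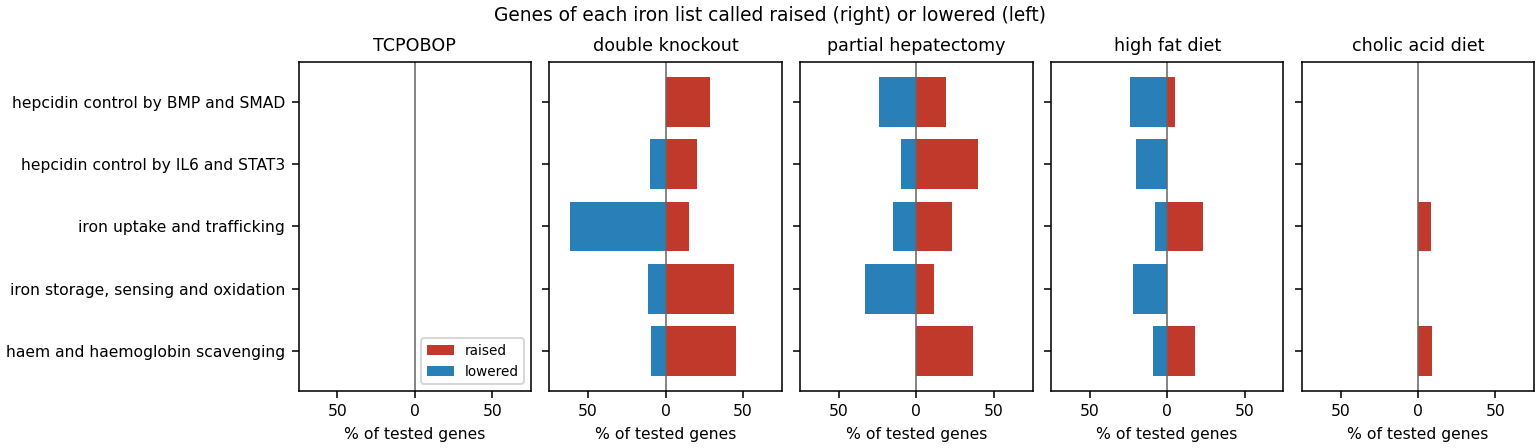
Percent of the tested genes of each list that were called higher (right, red) or lower (left, blue) in each comparison. In the knockout 8 of 13 uptake and trafficking genes were lower, and the TCPOBOP panel has no bars.

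Whether effects differed between whole-liver experiments was tested directly, as the difference between log2 fold changes. The knockout and hepatectomy effects differed for 5 of the 10 genes, against 31.5% of all genes (15.4% with a positive and 16% with a negative difference): Hamp2 (6.33 ± 0.64, adjusted p = 1.5e-05), Hamp (1.85 ± 0.55, adjusted p = 0.0216), Bmp6 (1.65 ± 0.40, adjusted p = 0.00712), Fth1 (1.01 ± 0.15, adjusted p = 0.000213) and Tfr2 (-0.50 ± 0.13, adjusted p = 0.0102). The Hamp call was lost without wild type 3, knockout 3 or sham 3, with adjusted p up to 0.0538. The knockout and cholic acid effects differed for 2, against 13.9% of all genes (7.18% positive, 6.74% negative): Hamp2 (3.34 ± 0.90, adjusted p = 0.0277) and Slc40a1 (-1.21 ± 0.25, adjusted p = 0.00665). Without the third floxed chow library the Hamp effects differed too (2.10, adjusted p = 0.0273). The Hamp2 call was lost in 7 of 12 fits that left out 1 library, namely those without wild type 1, 2 or 3, knockout 3, floxed chow 2 or cholic acid 1 or 3 (values from 2.26 to 3.85 over the 12). The hepatectomy and cholic acid effects differed for 2, against 13% of all genes (8.01% positive, 5.01% negative): Slc40a1 (-1.51 ± 0.26, adjusted p = 0.00324) and Fth1 (-1.004 ± 0.24, adjusted p = 0.0165). For Id1 none of the 3 differences passed, and the differences with their standard errors were -0.06 ± 0.38 for knockout minus cholic acid, 0.17 ± 0.38 for knockout minus hepatectomy and -0.22 ± 0.25 for hepatectomy minus cholic acid. The strain, age and feeding of the mice differed between these experiments and cannot be told apart from the treatments.

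The genes whose pattern was most like that of Hamp were ranked by Pearson correlation over the 26 libraries, each expressed as log2 CPM minus the mean of its control group, among 11356 genes. They were Tmem170b (0.85), Mtss1 (0.79), Tns1 (0.75), Qrich1 (0.75) and Rlim (0.73). For Tfrc they were Vps33b (0.69), Heatr3 (0.65), Tc2n (0.64), Zc3hc1 (0.62) and Dph6 (0.62). For Hamp2, added after its values were seen, they were Ltbp4 (0.93), Hlx (0.90), Dll4 (0.90) and Sfxn1 (0.88). The correlations share libraries and group differences, and are descriptions of these 26 libraries. Corn oil 1 and floxed chow 3, which stood apart from their groups, were among them. Corn oil 1 lay far from corn oil 2 for Hamp (35.6 and 466 CPM) and for Tfrc (215 and 45.3 CPM). Floxed chow 3 had 129 CPM of Hamp where its mates had 1086 and 1599 CPM. The weight of these libraries in the rankings was not tested.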

How the data were processed

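The deposited table holds counts of reads per gene for 26 libraries. Per the labels, RNA was extracted with an RNeasy kit and made into libraries with a TruSeq Stranded mRNA kit. Per the submitters' processing notes, the authors used bcl2fastq 2.17.1.14, Trimmomatic, STAR 2.4.2a, Picard 1.119 and HTSeq on GRCm38/mm10, and the annotation and strand setting are not given in the sources used here. The 5 summary lines of the counter were left out of library sizes, and 47224 of 47643 identifiers matched a symbol.

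Each comparison was fitted on its own libraries with edgeR 4.0.16 (R 4.3.3): filterByExpr (minimum count 10, minimum total 15), TMM scaling and the quasi-likelihood F test, with Benjamini-Hochberg adjustment over all genes and a threshold of 0.05. The differences of effects were contrasts in a fit over both experiments. Printed CPM were scaled over all 26 libraries. DESeq2 1.42.0, other filters and scalings, a replicate block, and leaving out each library were alternatives. The script was tested on simulated data.

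The 10 genes and the pathway and marker lists were chosen with earlier results of these data known. Of each list, the 4 called genes with the largest change were named per comparison, plus Hjv, Hfe, Tmprss6, Bmp2, Ftl1, Hp, Hpx, Hmox1, Saa1 and Socs3, as far as space allowed. Promoters came from RefSeq, with entries for 6 of the 10 genes (not Trf, Id1, Smad7 and Slc40a1), and UTRs, exon lengths and overlaps from GENCODE M21.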

Additional observations from a re-analysis of the deposited data

How the results depend on the processing

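Over all genes, DESeq2's Wald test called 91 with TCPOBOP and 1445 with cholic acid, no low-count filter gave 955 with cholic acid, and 1 fit over all 26 libraries gave 9 with TCPOBOP, 1735 with high fat diet and 3132 with cholic acid. Of the 10 genes, DESeq2 called 5 after hepatectomy, the joint fit 2 with high fat diet, and 4 passed for hepatectomy minus cholic acid without a filter. The sum of Hamp and Hamp2 had a difference of 0.28 on high fat diet, where Hamp alone had -0.67. DESeq2 size factors or its Wald test turned Fth1 for knockout minus cholic acid (0.0103 in both). The cause of these changes was not tested.

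In none of the 3 comparisons with 3 pairs did every same-numbered pair correlate above 0.1 in its deviations from the group means (-0.199 to 0.158). Cholic acid came close, with 0.130, 0.158 and 0.0977, where pairs of unlike number gave -0.110 to -0.0474. With 2 pairs, where the value was 0.122 for TCPOBOP and 0.130 for high fat diet, this cannot be decided. Numbers were not taken as pairs in the main fits. With a replicate block, genes called were 0 with TCPOBOP, 4763 in the knockout, 3664 after hepatectomy, 3693 with high fat diet and 480 with cholic acid, and of the 10 genes 0, 6, 3, 4 and 2. For the differences of effects the block gave 1536 genes (2 of the 10) for knockout minus cholic acid, 4108 (4) for knockout minus hepatectomy and 1497 (3) for hepatectomy minus cholic acid. The block lost the Hamp call for knockout minus hepatectomy (1.68, edgeR adjusted p = 0.0875), added Hamp2 for hepatectomy minus cholic acid (-3.65, adjusted p = 0.0238), and turned Tfrc after hepatectomy (-0.00718) and Hamp (0.0365) and Hamp2 (0.0280) with cholic acid, none of them called.

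Leaving out 1 library at a time moved genes called from 0 to 1233 with TCPOBOP, 3969 to 6024 in the knockout, 2554 to 4217 after hepatectomy, 1141 to 2644 with high fat diet and 189 to 1345 with cholic acid. It gave 1325 to 2350 for knockout minus cholic acid, 3914 to 4619 for knockout minus hepatectomy and 1089 to 2495 for hepatectomy minus cholic acid. Of the 10 genes, it called 0 to 2, 5 to 8, 3 to 4, 1 to 5 and 1 to 4 in the 5 comparisons, and 1 to 3, 4 to 5 and 2 to 4 in the 3 differences. With TCPOBOP the ranges were -0.14 to 3.59 for Hamp, -0.91 to 0.86 for Hamp2, -1.55 to 0.67 for Tfrc, -0.23 to 0.43 for Trf, -1.47 to 0.23 for Bmp6, -0.21 to 0.63 for Id1, -0.0154 to 1.13 for Smad7, -0.12 to 0.58 for Slc40a1 and -0.24 to 0.17 for Fth1. Direction also turned for Slc40a1 in the knockout (-0.13 to 0.0456), for Tfrc (-0.39 to 0.22), Tfr2 (-0.0480 to 0.0457) and Trf (-0.0589 to 0.30) after hepatectomy, for Tfrc (-0.14 to 0.53) and Trf (-0.000164 to 0.0561) with high fat diet, and for Hamp (-1.02 to 0.11), Hamp2 (-0.97 to 0.61), Tfrc (-0.27 to 0.98) and Trf (-0.25 to 0.0158) with cholic acid. It turned for Id1 (-0.39 to 0.18) and Fth1 (-0.17 to 0.17) in knockout minus cholic acid, Id1 (-0.20 to 0.40) and Smad7 (-0.0186 to 0.45) in knockout minus hepatectomy, and Hamp (-0.87 to 0.26) and Tfrc (-0.97 to 0.31) in hepatectomy minus cholic acid. Left-out libraries of a group of 2 leave 1 library, which is assumed to vary like the other group. Without corn oil 1, chosen after seeing the data, calls with TCPOBOP appeared in all 5 lists. Without corn oil 2 they appeared in all but the storage list, and each of these fits leaves 1 control library. Without floxed chow 3, likewise chosen, cholic acid raised 1, 0, 2, 1 and 3 genes of the BMP, IL6, uptake, storage and haem lists and lowered 0 in each.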
